A study of Homo sapiens with 6 samples.

Results

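Genes of steroid hormone synthesis and inactivation were examined for BRG1 and SMARCC2 occupancy in a pair of human prostate cancer cell lines. They were AKR1C1, AKR1C2, AKR1C3, AKR1D1, CYP11A1, CYP17A1, HSD3B1, HSD17B4, SRD5A1 and UGT2B15, which are 10 of 20037 protein-coding genes in the RefSeq table for GRCh38.p14. A peak was assigned to a gene when its summit lay inside the gene span or within 100 kb on either side. The windows of AKR1C1, AKR1C2 and AKR1C3 overlap, so these genes were counted once as the AKR1C cluster, which left 8 loci. The 4 peak lists held 141 peaks at these loci. They fell into 62 of the 65483 regions obtained by joining all peaks with 1 bp or more in common across the lists. The genes were given by name, and the rule that assigns peaks to them uses no peak value. The genes and the rule were, however, chosen with earlier results of these data known.

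LNCaP is an androgen-responsive human prostate adenocarcinoma line, and MR49F is a derivative of LNCaP that is resistant to enzalutamide, a drug that blocks the androgen receptor. Both were grown in RPMI medium with serum and antibiotics. Only the MR49F medium is described as holding enzalutamide, at 10 µM, so effects of the line and of the drug cannot be told apart. All cells were fixed first with 2 mM disuccinimidyl glutarate, a protein crosslinker, and then with 1% formaldehyde, and 4 µg of antibody to BRG1 or to SMARCC2 was used per precipitation. BRG1 is an ATPase subunit of the SWI/SNF chromatin remodelling complex, and SMARCC2 is one of the scaffold subunits of that complex. There was 1 library per line and antibody, so no value below has a replicate and no difference was tested. The 2 input libraries were not analysed here.

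Androgens are made from cholesterol in a chain of oxidation and reduction steps. The adrenal glands and testes carry out the first steps, and prostate cancer cells can convert adrenal precursors to testosterone and dihydrotestosterone. Other enzymes end the signal by reducing, oxidising or conjugating the active steroid. SWI/SNF slides and evicts nucleosomes at enhancers and promoters, and its binding at a site is not by itself a measure of transcription. No expression was measured here.

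In LNCaP the lists held 36174 BRG1 and 25706 SMARCC2 peaks, and in MR49F 44308 and 47615. Of these, 31, 21, 39 and 50 peaks lay at the 8 loci, in the same order, which is kept for every set of 4 values that follows. That is 0.0857%, 0.0817%, 0.088% and 0.105% of each list. The genome-wide medians of the number of fragments stacked at a summit, recovered from the deposited statistics, were 27, 28, 27 and 27. The windows of 7 luminal prostate marker genes, among them KLK3, TMPRSS2 and HOXB13, held 94, 69, 95 and 94 peaks, each counted once where windows overlap. Those of 6 fibroblast and 6 leukocyte markers held 16, 11, 17 and 16, and 28, 18, 35 and 28. Peaks in a window do not measure how much a marker is expressed.

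MR49F had more peaks than LNCaP at the 8 loci with each antibody, and the difference was larger with SMARCC2. Of the BRG1 peaks of both lines, 55.7% came from MR49F (Wilson 95% interval 44.1 to 66.8, counting error only), and of the SMARCC2 peaks 70.4% did (59.0 to 79.8). When counts were scaled to equal list length the shares were 50.7% and 56.2%. Per 100 kb of window there were 1.56 LNCaP BRG1, 1.06 LNCaP SMARCC2, 1.96 MR49F BRG1 and 2.52 MR49F SMARCC2 peaks. The medians over all protein-coding genes were 1.82, 1.01, 2.32 and 2.26.

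The loci differed widely among themselves. AKR1D1 had 3 LNCaP BRG1, 3 LNCaP SMARCC2, 8 MR49F BRG1 and 13 MR49F SMARCC2 peaks, and SRD5A1 had 4, 3, 8 and 9. These were the loci with at least 1.5 times as many MR49F as LNCaP peaks and at least 2 more, with each antibody. This is 2 of 8 loci, while 26.3% of all protein-coding genes met the same rule, so the share was close to the background. None of the 8 loci met the reverse rule, which 0.644% of genes met. HSD17B4 had 9, 7, 7 and 8 peaks, CYP11A1 had 5, 2, 6 and 6, and CYP17A1 had 5, 3, 6 and 5. The AKR1C cluster had 3, 2, 2 and 4, HSD3B1 had 1, 0, 1 and 4, and UGT2B15 had 1 in every list.

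**Figure D1:**
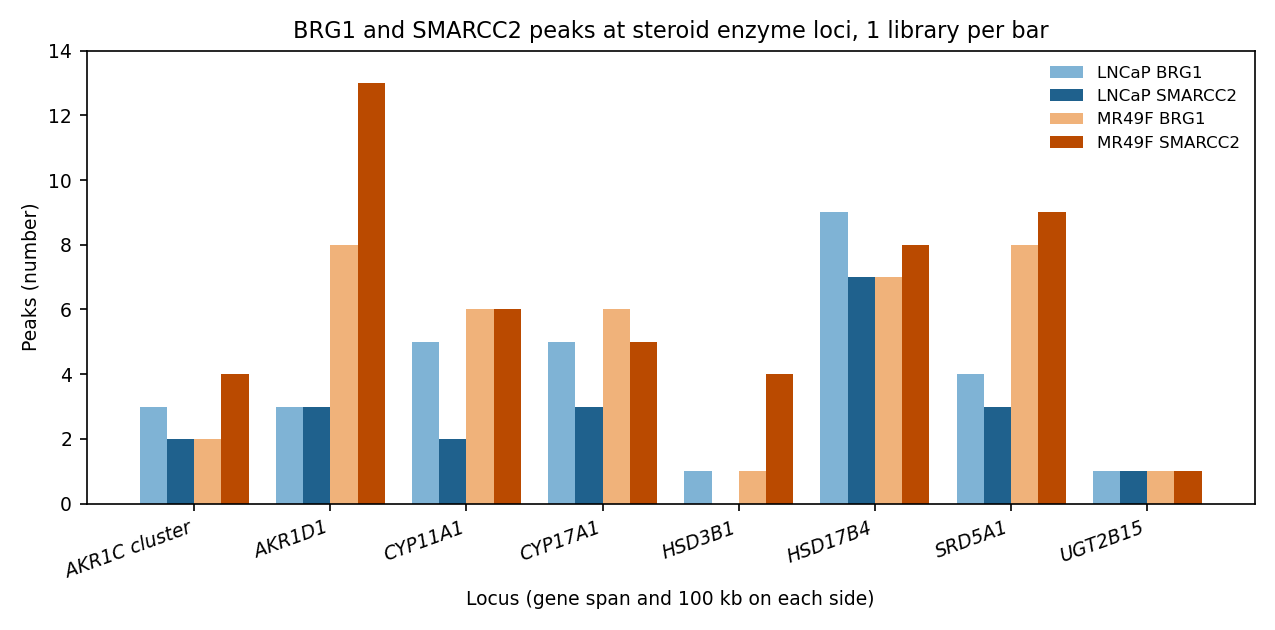
Number of BRG1 and SMARCC2 peaks (vertical axis) at each of the 8 loci, with 1 bar per library and no error bars because there were no replicates. The MR49F bars of AKR1D1 reach 8 and 13 against 3 in both LNCaP lists, while UGT2B15 has 1 peak in each list.

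Joining the lists separated sites found in both lines from sites of 1 line. Of the 62 regions, 11 had a peak in all 4 lists (17.7%, against 22.7% of all regions), and 15 had peaks from both lines in 2 or 3 lists. Regions with both antibodies in MR49F and neither in LNCaP numbered 14 (22.6%, interval 13.96 to 34.41, against 18.3% of all regions). The reverse class held 2 regions (3.23%, against 3.67%). At least 1 region of the MR49F class was present at 7 of 8 loci, which 70.2% of all genes also had. At least 1 region of the LNCaP class was present at 2 of 8 loci, the AKR1C cluster and HSD17B4, against 21.5% of genes. AKR1D1 alone held 5 of the 14 MR49F regions and SRD5A1 held 3. Only 16 of the 62 regions lay inside a member gene and 2 more within 1 kb of one. For 33 regions the nearest protein-coding gene was not a member, so a peak in a window is not evidence that it acts on the member.

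**Figure D2:**
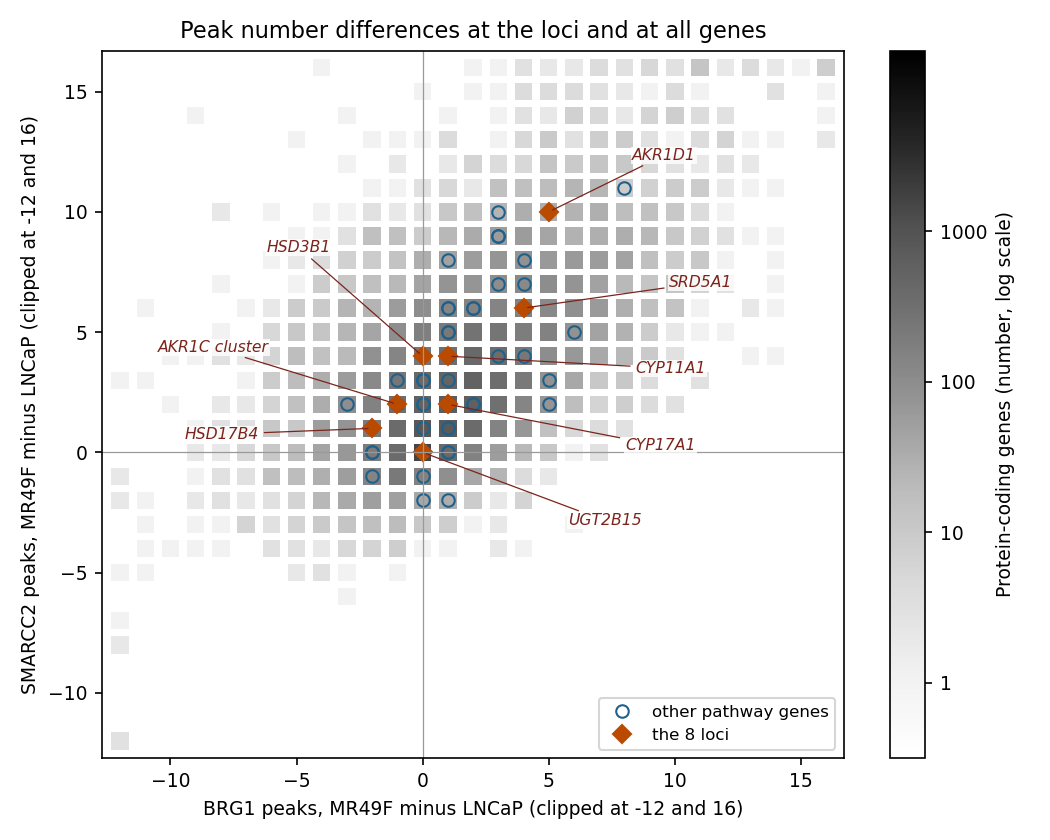
MR49F minus LNCaP peak number for BRG1 (horizontal axis) and SMARCC2 (vertical axis), with the 8 loci as diamonds, the 48 other pathway genes as open circles and all 20037 protein-coding genes as grey squares shaded by number. AKR1D1 lies at 5 and 10 and SRD5A1 at 4 and 6, inside the spread of the other genes, and HSD17B4 is to the left of 0 for BRG1 at -2.

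CYP11A1 cleaves the side chain of cholesterol and so begins steroid synthesis. Its gene, at chr15:74337762-74367646 on the reverse strand, held a single region, 7.56 kb inside the start site, called with both antibodies in MR49F and neither in LNCaP. The caller's −log10 q-value there was 4.05 for BRG1 from 13 fragments and 10.2 for SMARCC2 from 20 fragments, which are shallow peaks. A region 6.50 kb upstream of the start site was called with LNCaP BRG1 (−log10 q 11.7), MR49F BRG1 (6.96) and MR49F SMARCC2 (6.60). It was the strongest LNCaP BRG1 site of the locus. The second MR49F-only region of both antibodies lay 93.8 kb upstream beside UBL7, a gene of another function, with −log10 q of 13.1 and 4.197. The remaining 4 regions were shared between the lines and lay nearest to SEMA7A or CCDC33. The strongest MR49F BRG1 peak of the locus was in CCDC33, 127.6 kb past the CYP11A1 start site, at 22.5, where LNCaP BRG1 had 4.93 and SMARCC2 had no peak in either line. A region in SEMA7A 66.0 kb upstream was in all 4 lists, at 11.4, 6.83, 6.02 and 18.5. One 31.9 kb upstream had 11.3 and 8.29 in LNCaP, 17.7 for MR49F SMARCC2 and no MR49F BRG1 peak. These held the strongest SMARCC2 peaks of both lines at CYP11A1.

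CYP17A1 is the hydroxylase and lyase that turns pregnenolone into androgen precursors and is the target of abiraterone. Its gene, at chr10:102830531-102837413, contained 1 peak in 1 list, a LNCaP BRG1 peak 2.28 kb from the start site with −log10 q 4.79 and 17 fragments. The other 7 regions of the window lay in or beside WBP1L and CNNM2. A region in CNNM2 96.1 kb upstream of CYP17A1 was in all 4 lists, with −log10 q of 13.6, 11.3, 11.2 and 10.3. It gave the strongest peak of the locus in both LNCaP lists. In both MR49F lists the strongest peak lay instead in WBP1L 61.9 kb past the start site, at 23.8 and 29.9, in a region with a LNCaP BRG1 peak at 8.34 and no LNCaP SMARCC2 peak. A second WBP1L region, 92.95 kb past the start site, was in all 4 lists at 4.54, 6.25, 7.69 and 8.01. The 1 MR49F-only region of both antibodies was 81.4 kb upstream, inside CNNM2, at 14.3 and 12.7.

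HSD3B1 encodes the dehydrogenase that converts dehydroepiandrosterone to androstenedione, the step at which adrenal precursors enter the androgen pathway in prostate tissue. LNCaP SMARCC2 had no peak in this window, and LNCaP BRG1 had 1 weak peak (−log10 q 3.09, 20 fragments) 99.1 kb past the gene and nearest to ZNF697. MR49F had a strong region at chr1:119542002-119543467, 27.5 kb past the gene end, with 62 BRG1 fragments (exact Poisson 95% interval 47.5 to 79.5) at −log10 q 33.8 and 81 SMARCC2 fragments (64.3 to 100.7) at 57.1. They were in the top 7.58% and 5.31% of their lists. MR49F SMARCC2 also had a peak at the start site itself, its summit 0.029 kb upstream, at −log10 q 4.84 from 20 fragments. It had another 1.87 kb inside the gene at 2.92 from 11, and one 31.1 kb upstream at 6.91 from 23. A further pair of MR49F peaks fell just outside the window, 103 kb from the gene, at 13.2 for BRG1 and 29.4 for SMARCC2. The promoter of HSD3B1, shown because it is the 1 low-GC promoter among the 10 genes with a peak, has a GC content of 46.8% and no CpG. The line gives the 250 bases before the start site (RefSeq, GRCh38.p14, chr1:119506953-119507202, forward strand), and it held none of the 6 motifs searched.
HSD3B1: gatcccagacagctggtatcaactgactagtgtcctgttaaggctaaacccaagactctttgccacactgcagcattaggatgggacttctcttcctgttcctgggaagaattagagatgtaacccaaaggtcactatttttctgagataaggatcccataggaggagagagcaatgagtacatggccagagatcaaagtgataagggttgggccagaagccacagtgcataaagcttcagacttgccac

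SRD5A1 reduces testosterone to dihydrotestosterone, the more potent androgen, and is the isoenzyme that prevails in castration-resistant disease. The gene is at chr5:6633440-6674386 and starts close to NSUN2, which runs the other way. A region at chr5:6633419-6634874 covered the start of the gene and was in all 4 lists. In LNCaP its −log10 q was 6.55 with BRG1 and 15.8 with SMARCC2, from 29 and 43 fragments. In MR49F it was 26.5 and 23.3, from 48 and 44 fragments. Dividing the fragments by the genome-wide background of each library gives a height that takes account of library depth alone. On that scale the MR49F summit was 2.097 times the LNCaP summit for BRG1 (95% counting interval 1.296 to 3.449) and 1.47 times for SMARCC2 (0.946 to 2.30). The median ratio over all regions called in both lines was 1.34 for BRG1 (interquartile range 1.06 to 1.71) and 1.61 for SMARCC2 (1.25 to 2.13). The BRG1 ratio at SRD5A1 was thus above that of 88.4% of such regions, and the SMARCC2 ratio was above 40.6%. The height ratios below are likewise to be read against these median ratios and not against equal height.

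The MR49F excess in peak number at SRD5A1 lay away from its promoter. A region centred 0.689 kb upstream, inside NSUN2, had peaks in both LNCaP lists, at −log10 q 6.77 and 5.42, and in MR49F BRG1 at 5.54. One 2.89 kb inside the gene had peaks in LNCaP BRG1 at 2.14 and in the MR49F lists at 3.35 and 3.97. A SMARCC2 peak 7.31 kb inside the gene was in MR49F alone, at −log10 q 8.17. The 3 MR49F-only regions of both antibodies were 79.3, 81.3 and 133 kb from the start site, in or beside TENT4A. Their −log10 q was 15.9, 6.96 and 4.995 for BRG1 and 15.6, 13.4 and 2.62 for SMARCC2. Within 50 kb of the gene the counts were 4, 3, 6 and 7 and still met the rule. That window still held the TENT4A regions at 79.3 and 81.3 kb, which lay 38.4 and 40.3 kb past the gene end. Within 10 kb the counts were 3, 2, 3 and 3 and no longer met the rule. The surroundings of this window were sparse in peaks, with 1, 1, 6 and 10 peaks in total over the 1 Mb beyond each of its ends. The local background of MR49F relative to LNCaP over the surrounding 10 Mb was 0.993 for BRG1 and 0.905 for SMARCC2, each relative to its genome-wide level. Copy number was not measured.

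The promoters of SRD5A1 and HSD17B4 are shown because they were the CpG-rich pair among the members and both met a peak. SRD5A1 had 70.8% GC and 28 CpG in its 250 bases, and HSD17B4 had 52.8% and 14. Both held 1 copy of GGGCGG, the core of an SP1 site, here on the reverse strand as the capital letters. Of 35116 promoters of the same length, 42.6% held that motif on either strand. SRD5A1 is at chr5:6633190-6633439 and HSD17B4 at chr5:119452247-119452496, both on the forward strand of GRCh38.p14 from RefSeq.
SRD5A1: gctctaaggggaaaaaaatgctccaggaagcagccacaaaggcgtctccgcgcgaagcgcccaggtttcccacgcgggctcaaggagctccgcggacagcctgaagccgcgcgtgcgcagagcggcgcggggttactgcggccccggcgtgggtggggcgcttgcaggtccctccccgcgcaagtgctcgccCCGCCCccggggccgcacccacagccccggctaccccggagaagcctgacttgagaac
HSD17B4: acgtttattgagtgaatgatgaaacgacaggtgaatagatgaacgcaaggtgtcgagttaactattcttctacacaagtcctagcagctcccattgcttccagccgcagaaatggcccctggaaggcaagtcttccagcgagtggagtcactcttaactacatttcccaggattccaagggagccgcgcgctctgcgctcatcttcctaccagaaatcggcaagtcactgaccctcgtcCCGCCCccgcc
Counting also the first 50 bases after the start, the promoter of SRD5A1 was overlapped by a SMARCC2 peak in both lines, that of HSD17B4 by a LNCaP BRG1 peak and that of HSD3B1 by a MR49F SMARCC2 peak. The other 7 promoters were overlapped by none. At SRD5A1 the BRG1 peaks began just past those 50 bases, at chr5:6633494 in LNCaP and chr5:6633522 in MR49F. The LNCaP SMARCC2 peak began just within them, at chr5:6633481. Over all promoters the shares overlapped were 19.1%, 9.68%, 28.9% and 24.5% in the 4 lists. It was 5.89%, 3.42%, 7.0% and 6.66% for those with a GC content under 50%, which 6 of the 10 genes had.

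The AKR1C genes encode closely related ketosteroid reductases. AKR1C3 reduces androstenedione to testosterone, AKR1C2 inactivates dihydrotestosterone, and AKR1C1 inactivates progesterone. Their window on chromosome 10 was thinly occupied, with 0.871, 0.581, 0.581 and 1.16 peaks per 100 kb, and no region was in all 4 lists. A region 4.88 kb upstream of AKR1C3 was the only one found in both lines. It had 2 LNCaP BRG1 peaks, the stronger at −log10 q 3.596, a MR49F BRG1 peak at 5.48 and a MR49F SMARCC2 peak at 12.9. Inside the AKR1C2 span, chr10:5013414-5014042 was called with both antibodies in LNCaP, at 4.88 from 18 BRG1 fragments and 7.59 from 26 SMARCC2 fragments, and with neither in MR49F. The other LNCaP SMARCC2 peak of the cluster was 6.31 kb upstream of AKR1C1, at 2.90 from 19 fragments, with no peak of another list. A MR49F SMARCC2 peak lay inside the AKR1C2 span at another position, at 5.46 from 27 fragments. The MR49F-only region of both antibodies was inside the neighbouring AKR1C4, at 6.64 and 10.8. The best-ranked peak of the cluster was in the top 41.9% of its list.

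The near-identity of these genes bears on how reads are placed. The 250 bases before the start sites of AKR1C1 and AKR1C2 matched at 245 of 254 aligned columns (96.5%), those of AKR1C1 and AKR1C3 at 72.4%, and those of AKR1C1 and AKR1D1 at 47.3%. Reads from such copies may be dropped or placed at the wrong one, so peaks within the cluster are uncertain as to gene. The start site of AKR1C2 used for its promoter lies inside its annotated span, and both regions described inside that span are upstream of it. The sequences below (RefSeq, GRCh38.p14) are chr10:4963165-4963414, chr10:5003858-5004107 on the reverse strand and chr10:5048531-5048780. Capitals mark a CCAAT box, read as ATTGG on the printed strand, which all 3 genes share and which 32.0% of all promoters held.
AKR1C1: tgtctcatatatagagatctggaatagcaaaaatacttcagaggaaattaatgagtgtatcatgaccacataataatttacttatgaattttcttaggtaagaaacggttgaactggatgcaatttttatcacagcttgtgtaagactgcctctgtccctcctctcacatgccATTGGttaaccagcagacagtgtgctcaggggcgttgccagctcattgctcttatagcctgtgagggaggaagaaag
AKR1C2: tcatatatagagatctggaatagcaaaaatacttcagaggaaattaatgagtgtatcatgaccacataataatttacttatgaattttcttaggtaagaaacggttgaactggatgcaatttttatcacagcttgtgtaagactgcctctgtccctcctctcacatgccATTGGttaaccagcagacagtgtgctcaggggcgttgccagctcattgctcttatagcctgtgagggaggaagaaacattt
AKR1C3: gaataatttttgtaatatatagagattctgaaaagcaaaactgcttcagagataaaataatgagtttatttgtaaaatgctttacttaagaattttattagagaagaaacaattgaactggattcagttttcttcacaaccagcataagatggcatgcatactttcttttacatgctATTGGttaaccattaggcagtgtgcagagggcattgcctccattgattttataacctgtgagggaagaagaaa
No peak of any list overlapped these promoters.

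HSD17B4 is a peroxisomal enzyme of fatty acid oxidation that can also oxidise estradiol and androgens to weaker steroids. It had 4 of its 10 regions in all 4 lists, and all 4 of these were inside the gene. The strongest, 49.3 kb from the start site at chr5:119500732-119502373, had 64 LNCaP BRG1, 68 LNCaP SMARCC2, 59 MR49F BRG1 and 90 MR49F SMARCC2 fragments. Its −log10 q was 29.5, 32.9, 44.2 and 87.5, which placed it in the top 2.55%, 3.61%, 4.42% and 2.53% of the lists. The MR49F to LNCaP height ratio was 1.17 for BRG1 (0.806 to 1.69) and 1.91 for SMARCC2 (1.38 to 2.65). At the start of the gene, 0.529 kb in, the fragments were 25, 25, 35 and 48, with ratios of 1.77 (1.03 to 3.09) and 2.77 (1.67 to 4.68). The SMARCC2 ratio there was the largest of the 17 SMARCC2 regions called in both lines at the 8 loci.

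Further into HSD17B4, the region 77.7 kb from the start site had −log10 q of 7.98, 22.1, 9.72 and 13.2, and the one at 85.3 kb had 12.3, 12.9, 8.72 and 17.4. The SMARCC2 value of 22.1 was the second highest of the LNCaP list at this locus. A region 34.3 kb upstream, nearest to TNFAIP8, had the second strongest MR49F BRG1 peak, at 11.9, with LNCaP BRG1 at 5.73, MR49F SMARCC2 at 9.40 and no LNCaP SMARCC2 peak.

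The HSD17B4 window also held sites of 1 line. A region 66.1 kb upstream, inside TNFAIP8, had both antibodies in LNCaP at −log10 q 16.9 and 12.9, from 34 and 31 fragments, and no MR49F peak. A region 5.66 kb upstream of the gene had both antibodies in MR49F at 10.6 and 14.1, from 26 and 29 fragments, and no LNCaP peak. By peak density HSD17B4 stood above 75.8% and 86.2% of genes in LNCaP and above 52.6% and 61.9% in MR49F, for BRG1 and SMARCC2. With LNCaP counts scaled up to the length of the MR49F lists, they were 11.02 and 12.97 against 7 and 8, and HSD17B4 then met the rule for more LNCaP peaks. AKR1D1 and SRD5A1 still met the rule for more MR49F peaks on that scale. Of all protein-coding genes, 10.0% then met the rule for more MR49F peaks and 4.92% the reverse.

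AKR1D1 encodes the β-reductase of the steroid A ring, which clears androgens and glucocorticoids and takes part in bile acid synthesis, and is known mainly from liver. The gene, at chr7:138076459-138118305, had no LNCaP peak with either antibody inside it or within 50 kb. MR49F had 4 regions inside the gene, each called with both antibodies. They lay 13.2, 17.7, 20.2 and 22.9 kb from the start site, which puts them within 10 kb of one another. For BRG1 their −log10 q was 23.4, 20.7, 152 and 8.08, and for SMARCC2 31.2, 44.8, 317 and 13.7. The second region held another SMARCC2 peak, 16.3 kb from the start site, at 26.6.

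The third of these, chr7:138095975-138097710, was the strongest site of all 8 loci. Its BRG1 summit had 154 fragments (131 to 180) and a fold enrichment of 22.6 over local background, rank 111 of 44308. Its SMARCC2 summit had 252 fragments (222 to 285) and a fold enrichment of 41.3, rank 94 of 47615. These ranks are in the top 0.251% and 0.197% of the lists. Summit heights were 58.9 and 105 times the genome-wide background, against medians of 10.3 and 11.3 over all peaks of these lists. The LNCaP lists give no value at the site. LNCaP peaks over local backgrounds of up to 6 fragments began at 13 fragments for BRG1 (height 3.92) and 14 for SMARCC2 (height 4.06). Those are the lowest values, and the 5th percentiles were 16 fragments for BRG1 (height 4.83) and 18 for SMARCC2 (height 5.22). The local backgrounds of the MR49F summits were 5.86 and 5.13. These are on the scale of the MR49F libraries, whose genome-wide backgrounds were lower than those of LNCaP. The LNCaP threshold at this site is therefore not known.

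SMARCC2 alone marked 4 more MR49F regions between 12.9 and 64.0 kb upstream of AKR1D1, at −log10 q from 11.3 to 51.3. The strongest of them, 37.5 kb upstream, had 59 fragments (44.9 to 76.1) and a fold enrichment of 15.2, in the top 6.36% of its list, and no BRG1 peak. BRG1 peaks overlapped 8 of the 13 MR49F SMARCC2 peaks at this locus, and SMARCC2 overlapped 7 of the 8 MR49F BRG1 peaks. The fifth MR49F-only region of both antibodies was 97.1 kb upstream inside CREB3L2, at 11.9 and 12.4, with a weak LNCaP BRG1 peak (2.06) in the adjoining region.

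Regions found in both lines were at the margins of the AKR1D1 window. The strongest LNCaP peaks of the locus were 135.9 kb past the start site, at 15.3 for BRG1 and 17.0 for SMARCC2. MR49F SMARCC2 had 7.97 there and MR49F BRG1 no peak, with a SMARCC2 height ratio of 0.856 (0.481 to 1.49). A region 118.8 kb past the start site was in all 4 lists, at 7.90, 9.87, 20.7 and 22.5, with ratios of 1.86 for BRG1 (1.12 to 3.12) and 1.82 for SMARCC2 (1.14 to 2.95). The MR49F-only regions thus lay mostly in the gene and the 64.0 kb upstream of it. In the 1 Mb beyond each end of the window there were 1.00, 0.85, 1.45 and 1.35 peaks per 100 kb, against 1.24, 1.24, 3.31 and 5.38 in the window. The local background over 10 Mb was 1.06 and 1.08 times that of LNCaP. By peak density AKR1D1 stood above 35.7%, 54.2%, 68.4% and 93.7% of protein-coding genes in the 4 lists.

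**Figure D3:**
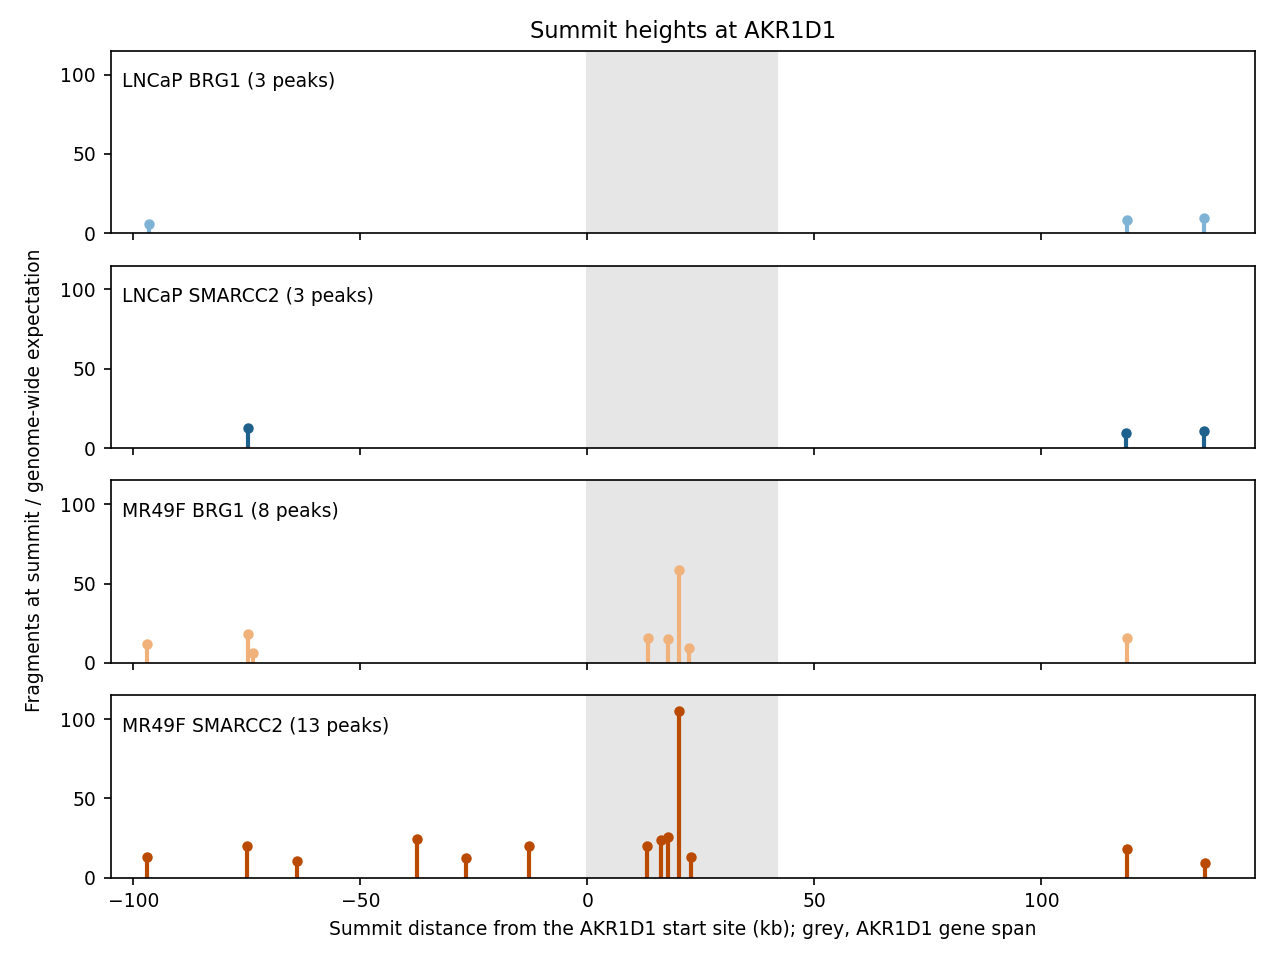
Summit height over the genome-wide expectation (vertical axis) against distance from the AKR1D1 start site in kb, with 1 panel per library and the gene span in grey. No LNCaP summit lies in the grey span, and the MR49F summits near 20.2 kb reach 58.9 for BRG1 and 105 for SMARCC2.

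The AKR1D1 promoter itself carried no peak in any list. Its 250 bases (RefSeq, GRCh38.p14, chr7:138076209-138076458, forward strand) are shown to set this low-CpG promoter beside those above. They have 40.8% GC and 1 CpG, and none of the 6 motifs searched was found in them.
AKR1D1: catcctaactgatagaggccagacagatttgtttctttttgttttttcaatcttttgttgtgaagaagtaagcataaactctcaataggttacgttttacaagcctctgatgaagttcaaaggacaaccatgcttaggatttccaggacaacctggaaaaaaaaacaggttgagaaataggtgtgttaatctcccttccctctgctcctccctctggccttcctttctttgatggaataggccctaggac
The motifs were TGANTCA for AP-1, TGTTCT for the androgen receptor, TGTTTAC for FOXA, GGGCGG for SP1, CACGTG for the E-box and CCAAT, all read on both strands. They were found in 6.57%, 12.4%, 2.98%, 42.6%, 6.34% and 32.0% of the 35116 promoters. Among the 10 genes TGANTCA and CACGTG were found in none, and the FOXA and androgen receptor letters in UGT2B15 alone. A match is a description of letters and not a bound site.

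The 7 hepatocyte markers were counted beside AKR1D1 because that gene is known from liver. Their windows held 17, 17, 28 and 32 peaks, and 3 of 7 met the rule for more MR49F peaks, against 26.3% of all genes. The 3 were APOA1 with 4, 3, 6 and 6, APOB with 0, 0, 3 and 3 and SERPINA1 with 1, 1, 4 and 5. Those that did not were ALB with 1, 3, 3 and 4, TTR with 1, 3, 2 and 3, FGB with 2, 1, 1 and 2 and TF with 8, 6, 9 and 9. ALB and FGB each had a LNCaP-only region of both antibodies. Of 7 markers of adrenal cortex and other steroid-making cells, 1 met the rule, NR0B1, and their windows held 29, 14, 25 and 30 peaks. Whether these counts bear on those at AKR1D1 was not tested.

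UGT2B15 attaches glucuronic acid to dihydrotestosterone and its metabolites and thereby clears them. Its 224 kb window, on chromosome 4, held 1 region, which was in all 4 lists and lay 78.0 kb past the gene end inside the paralogue UGT2B17. The −log10 q was 6.11, 14.4, 20.1 and 31.7, from 21, 34, 31 and 40 fragments. Height ratios were 1.87 for BRG1 (1.04 to 3.43) and 1.70 for SMARCC2 (1.05 to 2.76). No peak of either line was at UGT2B15 itself. Genes of this cluster are near-identical copies, so peaks here are uncertain as to gene, and how reads that fit several copies were handled is not stated in the labels.

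**Figure D4:**
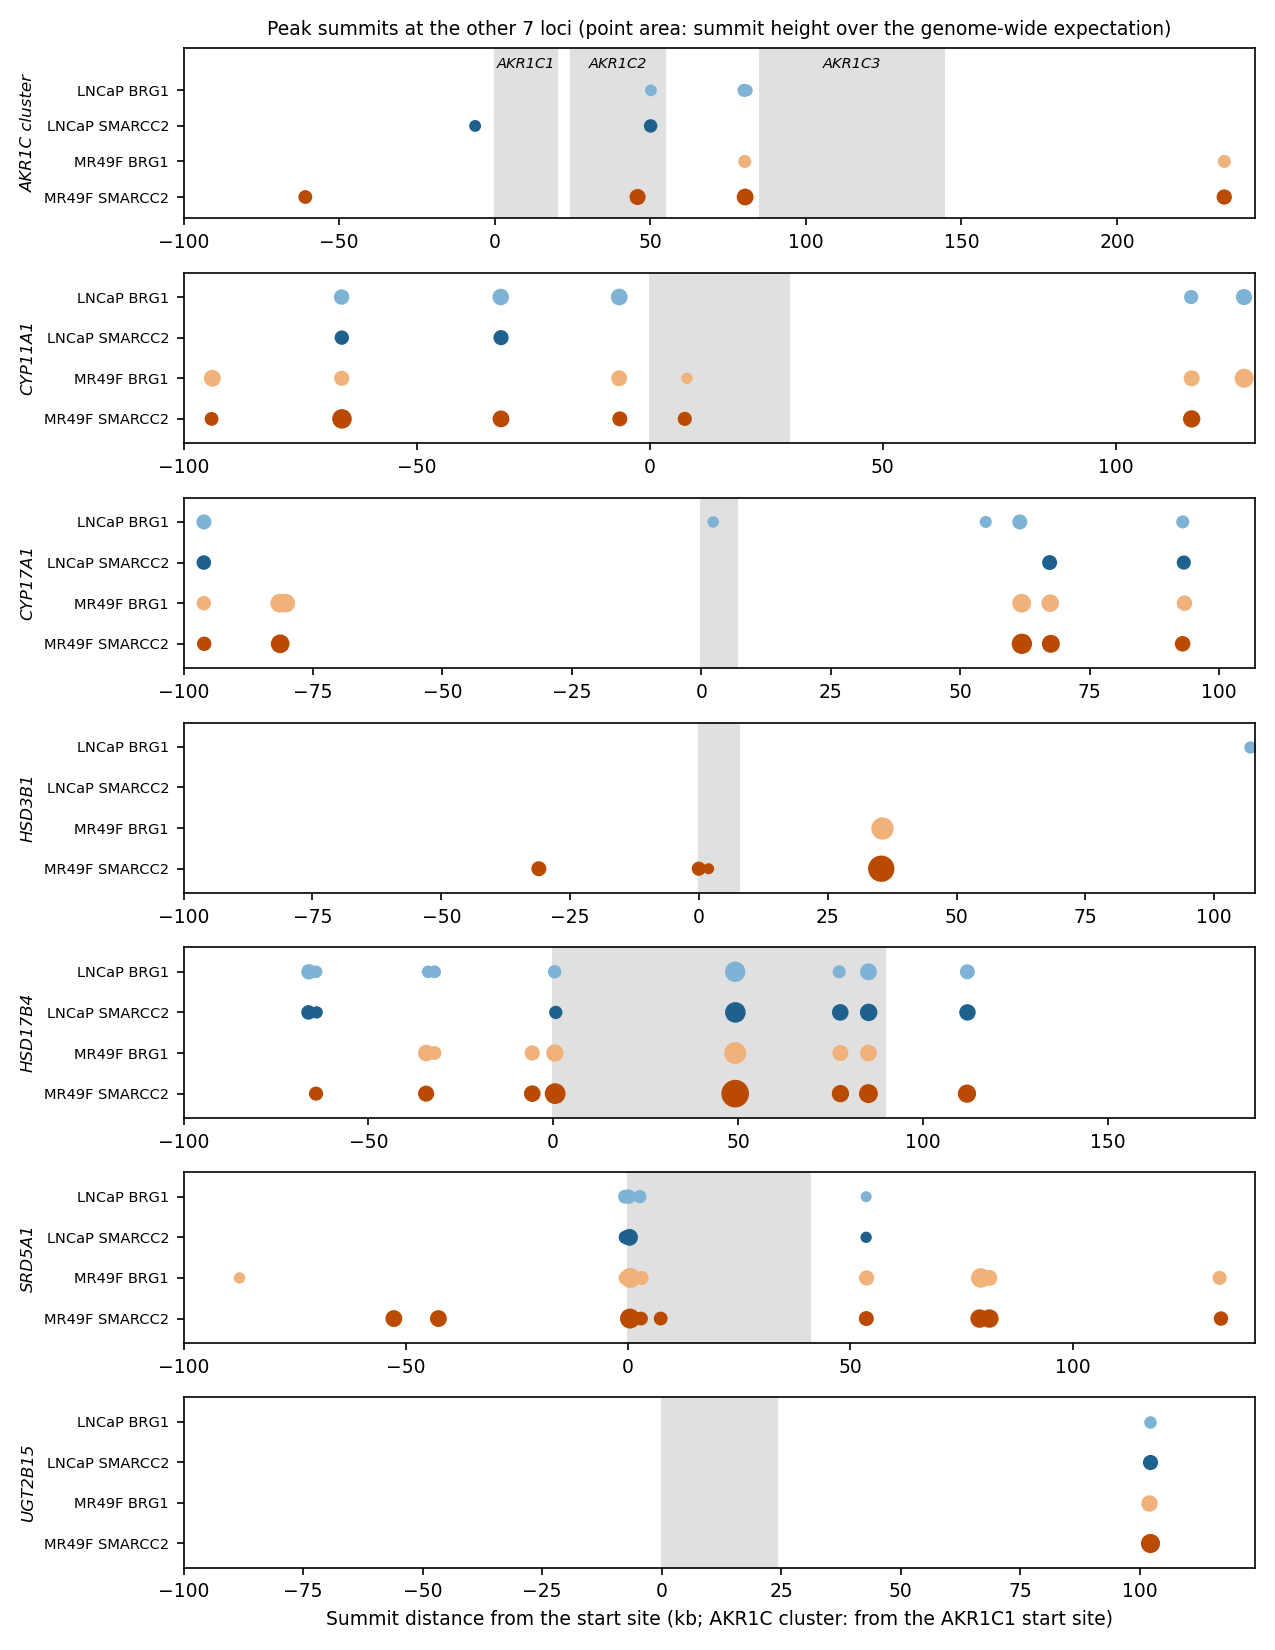
Peak summits at the other 7 loci by distance from the start site in kb, with 1 row per library, gene spans in grey and point area in proportion to summit height over the genome-wide expectation. HSD17B4 carries shared summits inside the gene, HSD3B1 carries MR49F summits 35.4 kb from its start with no LNCaP counterpart, and UGT2B15 has 1 shared site.

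Where both lines had a peak, the height ratios at these loci lay around those of the rest of the genome. For BRG1, 20 regions at 7 of the 8 loci had a median MR49F to LNCaP height ratio of 1.37, ranging from 0.897 to 2.20, and 10 were above the median of all 23064 such regions. For SMARCC2, 17 regions had a median of 1.47, ranging from 0.856 to 2.77, and 6 were above the median of 18884 regions. The lowest BRG1 ratios were 0.897 upstream of CYP11A1 and 0.911 in CNNM2. The counting interval included the genome-wide median at 20 of 20 BRG1 and 15 of 17 SMARCC2 regions. The exceptions were the start of HSD17B4, above it, and the region 135.9 kb past the AKR1D1 start site, below it. Their SMARCC2 ratios were above those of 89.2% and 4.8% of all such regions. The intervals do not cover the spread among regions.

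**Figure D5:**
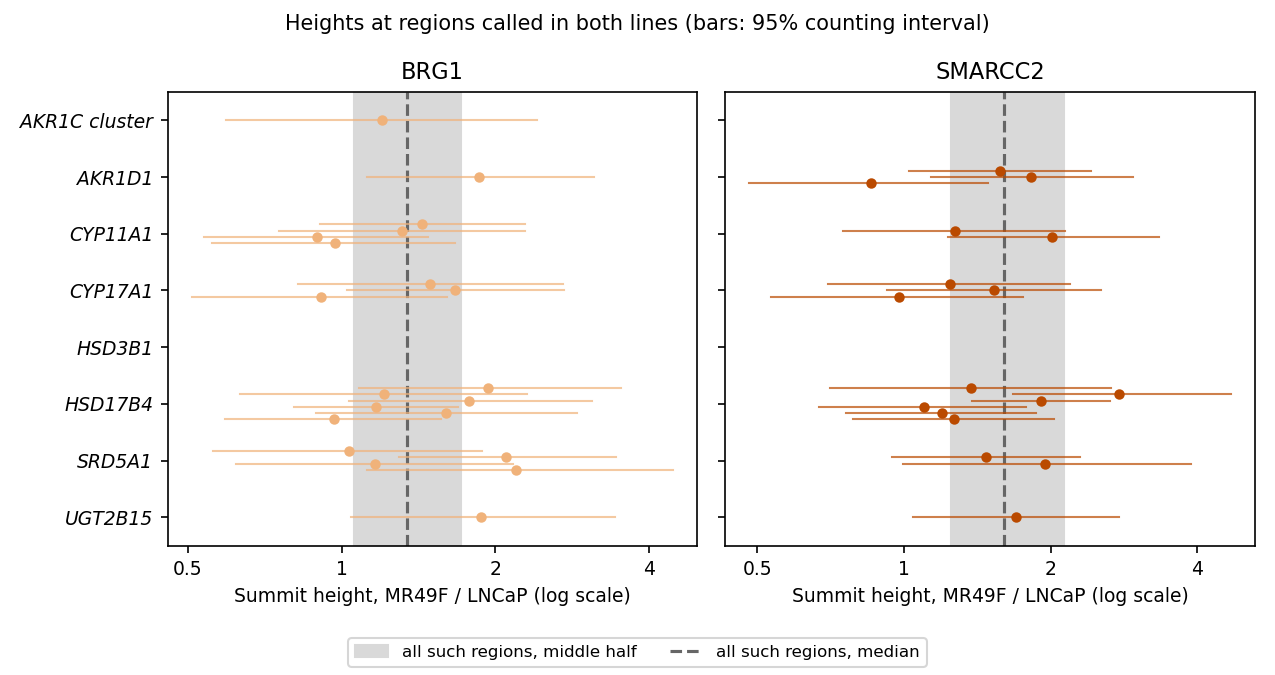
MR49F to LNCaP summit height ratio (log axis) at regions called in both lines, by locus, for BRG1 and SMARCC2, with bars for the 95% counting interval and the median and interquartile range of all such regions in grey. Points scatter around the medians of 1.34 and 1.61, and HSD3B1 has no region called in both lines.

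The 2 antibodies overlapped at these loci in shares whose intervals included those of the whole lists. In LNCaP, 18 of 31 BRG1 peaks overlapped a SMARCC2 peak (58.1%, 40.8 to 73.6), against 55.3% of the whole list. In MR49F, 33 of 39 did (84.6%, 70.3 to 92.8), against 79.8%. Of the SMARCC2 peaks, 18 of 21 overlapped a BRG1 peak in LNCaP (85.7%, 65.36 to 95.02, whole list 80.1%) and 34 of 50 in MR49F (68.0%, 54.2 to 79.2, whole list 75.7%).

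The other genes of the pathway were read from a list of 48, all of which matched the gene table. Of these, 12 met the rule for more MR49F peaks, against a background of 26.3%, and 0 the reverse. By role they were 2 of 7 genes of cholesterol entry and cofactors, 3 of 17 other synthesis enzymes, 6 of 21 inactivation enzymes and 1 of 3 transporters. SULT2B1, a sulfotransferase of cholesterol and dehydroepiandrosterone, had 7, 2, 15 and 13 peaks in list order. FDXR, which feeds electrons to mitochondrial steroid hydroxylases, had 6, 2, 10 and 10. The uptake transporter gene SLCO1B3 had 3, 5, 9 and 10, and DHRS9, a dehydrogenase of retinol and steroids, had 3, 2, 6 and 9. The steroid sulfatase gene STS had 4, 1, 6 and 7, and CYB5A, the cytochrome b5 that aids the lyase reaction of CYP17A1, had 5, 5, 10 and 8. UGT2B11 with 2, 1, 6 and 8 and UGT2B28 with 4, 3, 8 and 9 lie in the same gene cluster as UGT2B15, and windows of neighbouring genes share peaks.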

How the data were processed

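ChIP-seq peak lists of 4 libraries were used, 1 per cell line and antibody, and grouped by the titles in the labels. Per the submitters' processing notes, the build was hg38 and the tools included MACS2 2.1.0, BWA 0.7.10 and SAMtools. The control library, duplicate handling and read filters are not stated in the sources used here. The authors deposited for each peak a fold enrichment (a ratio to local background), a −log10 p-value, a −log10 q-value, a display score (not used further here) and a summit offset. The lowest deposited −log10 q-value lies between 2.00 and 2.01.

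The fragment number at a summit and its local background were solved from the deposited fold and −log10 p-value, with a pseudocount of 1 and a scale per library between 0.92 and 1. At least 99.99% of the peaks of each list could be solved, and the solver was tested on simulated data. Height is the scaled fragment number over the genome-wide background of the library, taken as the 1st percentile of the solved local backgrounds. That was 3.22, 3.17, 2.62 and 2.39 fragments in the order LNCaP BRG1, LNCaP SMARCC2, MR49F BRG1 and MR49F SMARCC2. The height assumes that the caller's own formula was used. Depth limits precision through these fragment numbers, and intervals (Wilson for shares, exact Poisson for fragments, exact binomial for ratios) cover counting error only.

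Gene spans, strands and promoters came from RefSeq tables on GRCh38.p14, the same build as hg38. All 10 genes matched both tables. Of 20037 protein-coding genes, 15843 had a promoter entry. Scripts used Python 3.11.15, NumPy 2.4.6, pandas 2.3.3, SciPy 1.17.1, Biopython 1.88 for alignment and matplotlib 3.10.9. Where a list has no peak, the signal stayed under the caller's threshold. The members, lists, windows and rules were chosen with earlier results of these data known. All members were named, and peaks were described singly when they were among the 2 strongest of a list and locus, lay within 1 kb of the gene or belonged to a region of both antibodies in 1 line. Of the other pathway genes, the 8 with the largest summed difference among those meeting the count rule were named. Alternatives were other thresholds, windows, overlap rules and scaling to list length.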

Additional observations from a re-analysis of the deposited data

Results flagged for a closer look

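The sign of the difference between the antibodies was opposite in the lines at 4 loci and over all 8 together. At the AKR1C cluster, SMARCC2 had 1 peak fewer than BRG1 in LNCaP (-1) and 2 more in MR49F, a change of 3. Of the 3 LNCaP BRG1 peaks there, 2 lay in 1 joined region. At HSD3B1 the differences were -1 and 3, a change of 4, and the 1 LNCaP BRG1 peak was weak (−log10 q 3.09). At HSD17B4 they were -2 and 1, a change of 3. At SRD5A1 they were -1 and 1, a change of 2. Over the 8 loci they were -10 and 11, a change of 21. The whole lists have the same signs, with 25706 SMARCC2 against 36174 BRG1 peaks in LNCaP and 47615 against 44308 in MR49F. At a −log10 q of 5 or more, the LNCaP BRG1 and SMARCC2 counts were 0 and 1 at the AKR1C cluster and 0 and 0 at HSD3B1. They were 9 and 5 at HSD17B4 and 2 and 2 at SRD5A1. Of these loci, LNCaP SMARCC2 then had fewer peaks than BRG1 only at HSD17B4. The share of all genes with such a change of sign was not counted, so the 4 loci cannot be set against a background. With 1 library per line and antibody these differences were not tested.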

How the results depend on the processing

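Of 63 recomputed main values, 41 stayed within the counting interval or within 1.5 times the count and 22 did not. Of 80 recomputed differences at single loci, 59 stayed, 15 moved and 6 changed sign. AKR1D1 met the rule for more MR49F peaks in each alternative that could change it, other than the one that left it out, and SRD5A1 in 4 of 6. At a −log10 q of 5 or more, 4 loci met the rule (the AKR1C cluster and CYP17A1 joined, and 34.3% of genes met it), LNCaP-only regions of both antibodies fell to 1, and the AKR1C BRG1 difference turned from -1 to 2. Restricting each list to its 10000 strongest peaks gave a MR49F share of SMARCC2 peaks of 54.5%. There, 1 locus had more MR49F peaks (AKR1D1, 3.59% of genes) and 1 more LNCaP peaks (HSD17B4, 3.56%). Regions numbered 6 for MR49F only, 4 for LNCaP only and 1 in all 4 lists, and the differences turned to -2 at CYP11A1 for BRG1 and -4 at HSD17B4 for SMARCC2. With windows of 50 kb the regions numbered 9, 1 and 6, and the CYP17A1 BRG1 difference turned to -2. With windows of 10 kb they numbered 6, 1 and 5, and 1 of 8 loci had more MR49F peaks (AKR1D1), against 9.91% of genes. In that setting 93.3% of MR49F BRG1 peaks overlapped SMARCC2, and the BRG1 differences turned to -1 at CYP17A1 and 1 at HSD17B4. Fewer peaks enter these settings by construction. Scaling to list length gave a SMARCC2 share of 56.2% and 1 locus with more LNCaP peaks (HSD17B4, 4.92% of genes). With an overlap of 50% of both peaks, LNCaP-only regions numbered 4, and 69.2% of MR49F BRG1 peaks overlapped SMARCC2. Leaving out AKR1D1, an alternative chosen after seeing the data, left 1 locus with more MR49F peaks (SRD5A1, against 26.3% of genes) and 9 MR49F-only regions. No paired analysis was possible because each group has 1 library.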
